A study of Mus musculus with 4 samples.

Results

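The major histocompatibility complex (MHC) of the mouse, called H2, was taken as the 2.6 Mb of chromosome 17 from 33900000 to 36500000 (mm10). Its members are 1-kb windows with at least 3 cytosine positions read 5 or more times in both libraries of a comparison. Of the 2600 windows of the region, 1372 met this in at least 1 of 4 comparisons, among 1778103 such windows in the whole series. Along the RefSeq genes, 40 of them lay in the class I stretch at the K end (33900000 to 34020791, ending before Ring1), 285 in the class II stretch (34020792 to 34564285, ending before Notch4), 458 in the class III stretch (34564286 to 35263093, ending before H2-D1) and 589 in the class I stretch that holds the D, Q, T and M genes (35263094 to 36500000). The region holds 230 RefSeq genes, of which 141 are protein coding.

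DNA methylation was read by whole-genome bisulfite sequencing in 4 libraries of spleen T cells from NOD mice, which develop autoimmune diabetes spontaneously. PBS Teff and PBS Treg were CD4+CD25- effector and CD4+CD25hi regulatory T cells of mice given PBS. OX40L-JAG1 Teff and OX40L-JAG1 Treg were the same sorted cells from mice given OX40L and Jagged-1 proteins. Doses were weekly for 3 weeks from 6 weeks of age, and the cells were taken at 10 weeks. Each group is 1 library, the number of animals behind a library is not stated, and so each test compares 2 libraries and not 2 conditions. No spread between libraries of a group could be measured. Where 4 levels follow each other below, they are those of Teff and then Treg given PBS, followed by Teff and then Treg given OX40L-JAG1.

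Class I molecules present peptides made inside the cell to CD8 T cells, and class II molecules present peptides of ingested proteins to CD4 T cells. The class II stretch also holds the transporter and proteasome genes that make and carry class I peptides, and class III holds complement genes and the cytokine genes Tnf, Lta and Ltb. Mouse T cells express class I genes but, as a rule, not class II genes. The reference build comes from C57BL/6, of haplotype H2b. NOD mice carry H2g7, which differs from it at the K and class II genes and has a D gene of the same type. Reads from a divergent allele can fail to align to the reference. A cytosine that is a thymine in NOD would be read as unmethylated.

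The promoters of 5 genes are printed to show what bisulfite reads can see at each of them: class I, class II and lymphotoxin genes differ in how many CpG dinucleotides, the sites of methylation, lie before the start. Each is the 250 bases before the start on the gene's strand (RefSeq, GRCm38.p6), with CpGs in capitals. H2-K1 is at chr17:34000348-34000597 (minus strand), H2-D1 at chr17:35262844-35263093 (plus strand), H2-Aa at chr17:34287824-34288073 (minus strand), H2-Eb1 at chr17:34305617-34305866 (plus strand) and Lta at chr17:35205352-35205601 (minus strand).
H2-K1: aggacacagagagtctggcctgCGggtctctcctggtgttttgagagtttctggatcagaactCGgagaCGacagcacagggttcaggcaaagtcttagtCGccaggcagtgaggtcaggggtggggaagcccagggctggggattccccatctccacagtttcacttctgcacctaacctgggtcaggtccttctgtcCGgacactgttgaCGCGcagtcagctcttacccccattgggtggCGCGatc
H2-D1: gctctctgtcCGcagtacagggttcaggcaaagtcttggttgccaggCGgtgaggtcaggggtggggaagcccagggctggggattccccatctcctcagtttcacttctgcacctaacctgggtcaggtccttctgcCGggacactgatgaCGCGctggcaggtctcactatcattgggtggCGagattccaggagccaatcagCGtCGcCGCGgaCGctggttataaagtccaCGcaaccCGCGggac
H2-Aa: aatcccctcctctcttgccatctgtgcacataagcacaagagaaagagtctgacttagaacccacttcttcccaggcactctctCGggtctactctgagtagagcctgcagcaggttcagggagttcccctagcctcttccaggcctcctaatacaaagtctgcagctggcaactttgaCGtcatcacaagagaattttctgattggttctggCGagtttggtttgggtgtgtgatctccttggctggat
H2-Eb1: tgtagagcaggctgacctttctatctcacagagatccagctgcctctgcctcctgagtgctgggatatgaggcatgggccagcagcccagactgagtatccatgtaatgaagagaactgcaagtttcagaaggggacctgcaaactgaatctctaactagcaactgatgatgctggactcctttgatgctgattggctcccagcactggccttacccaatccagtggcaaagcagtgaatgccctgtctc
Lta: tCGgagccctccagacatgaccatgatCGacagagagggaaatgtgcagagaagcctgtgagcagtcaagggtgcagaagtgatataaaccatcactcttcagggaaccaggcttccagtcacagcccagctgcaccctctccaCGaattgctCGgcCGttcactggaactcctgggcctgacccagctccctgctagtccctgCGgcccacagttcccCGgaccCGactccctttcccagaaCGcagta

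H2-D1, a class I heavy chain gene, had 14 CpGs in these bases, and H2-K1, the other classical class I gene, had 9. Lta had 9, H2-Aa, the class II alpha chain, had 3, and H2-Eb1, the class II E beta chain, had 0, so its core promoter offers nothing to read. H2-K1 and H2-D1 shared an identical run of 47 bases, starting at -141 in H2-K1 and -201 in H2-D1, which holds the class I enhancer A sequence, the palindrome bound by NF-kappa-B and Rel proteins. Searched on both strands of the 300-base promoters, that sequence was found in 3 of 142 promoters of the region (H2-K1, H2-D1 and H2-Q6) and in 6 of 27025 promoters overall. ATTGG, the core of the Y box of class I and class II promoters, was found in 46.5% of the region's promoters and in 34.5% of all promoters. H2-Aa and H2-Eb1 both hold it. These are matches of letters and not binding sites.

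How well the region was read differed sharply along its length. It held 11.0 listed positions per kb, against 10.4 on the rest of chromosome 17. Class III was densest at 14.6 per kb, followed by the K end at 11.0, class II at 9.63 and the D, Q, T and M stretch at 9.58. Positions read in all 4 libraries were scarcer than elsewhere: 3047 of 28583, or 10.7%, against 17.5% on the rest of the chromosome and 18.9% in the genome. The share was 6.49% at the K end, 11.0% in class II, 8.85% in class III and 12.5% in the D, Q, T and M stretch.

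**Figure D1:**
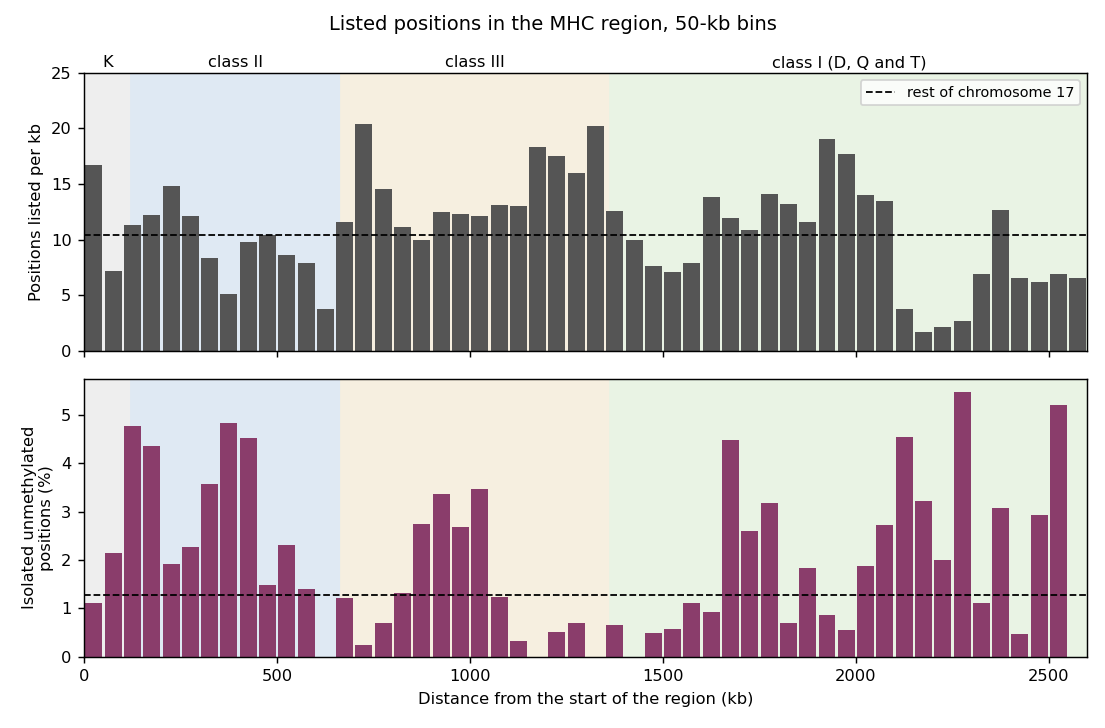
Listed cytosine positions per kb (top) and the percentage of pooled positions that are isolated and unmethylated (bottom) in 50-kb bins, against the distance from the start of the region; dashed lines give the rest of chromosome 17 and shading the 4 stretches. The lowest bin, among the T genes, holds 1.66 positions per kb, and in the lower plot the bins that start from 35000000 to 35500000 all lie below the line.

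The thin coverage fell on particular class I and class II genes. With 5 kb on either side, the genes and their flanks held 2.40 positions per kb at H2-K1, 3.47 at the neighbouring pseudogene H2-K2, 4.01 at H2-Ab1 and 3.78 at H2-Aa, the 2 chains of the I-A molecule. H2-D1, by contrast, held 12.1 per kb and H2-Eb1 held 9.71. Among the Q genes, H2-Q5 was lowest at 0.867 and H2-Q10 highest at 13.2. The T genes, nonclassical class I genes, ran from 1.47 at H2-T22 to 5.34 at H2-T24. Btnl6, a butyrophilin-like gene, held a single listed position in 20.9 kb.

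Gaps of more than 10 kb with no listed position added up to 100 kb in 6 gaps, or 3.85% of the region, against 0.285% of the rest of chromosome 17. The longest, 24.7 kb from 34497505 to 34522206, covers Btnl6. The other 5 lay in the D, Q, T and M stretch, between 35403378 and 36179607, and class III had none. Windows without any listed position made up 10.9% of the region, 1% of class III and 4.06% of the rest of the chromosome. Whether differences between the NOD and the reference sequence set these gaps was not tested.

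A single position at 10% or less in all 4 libraries whose neighbours on both sides were at 80% or more in all 4 was counted as isolated. Such a position may be an unmethylated cytosine or a base that differs in NOD, and these cannot be told apart here. The region held 29 among its 3047 shared positions, or 0.952% (Wilson 95% interval 0.663 to 1.36), against 0.581% on the rest of chromosome 17 and 0.513% in the genome. With the reads of the 4 libraries pooled, an alternative added after the data were seen, the share was 1.77% in the region, 1.27% on the rest of the chromosome and 1.04% in the genome.

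The isolated positions were not spread evenly. In class II there were 9, or 1.56% of its shared positions, in Tap2 and H2-Eb2 among other genes. By pooled reads the share was 2.53% at the K end, 2.65% in class II, 1.10% in class III and 1.83% in the D, Q, T and M stretch. The longest run without one reached from 34889484 to 35586454, a length of 697 kb that holds Tnf, H2-D1 and the Q genes, with 983 shared positions. There were 17 isolated positions before it and 12 after it. By pooled reads, 0.849% of positions in this run were isolated and 2.19% in the rest of the region; the run was picked on the same reads, so this is a description.

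The MHC was less methylated than the genome in every library. At shared positions, 75.8%, 75.4%, 73.8% and 74.5% of reads were methylated, with an interval from 75.5 to 76.1 in PBS Teff. The genome stood at 85.2%, 84.9%, 81.6% and 82.2%, and the rest of chromosome 17 at 81.3%, 80.5%, 77.0% and 77.3%. All intervals of levels and differences cover counting error at most, and no spread between libraries. Since 1 read is counted once per position that it spans, they are too narrow even for counting error. The region held more unmethylated positions: 14.6% of shared positions in PBS Teff stood at 20% or less, against 4.96% on the rest of the chromosome and 4.53% in the genome. In PBS Teff, class III was lowest at 71.2%, then class II at 72.6%, the D, Q, T and M stretch at 79.1% and the K end at 81.4%. The intervals of class II and class III, 71.8 to 73.4 and 70.6 to 71.9, touched.

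**Figure D2:**
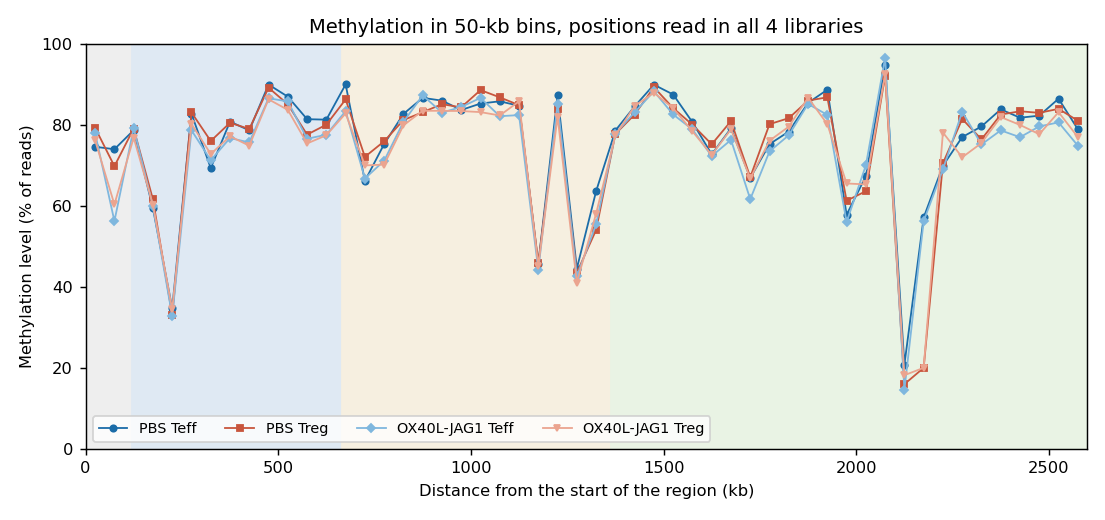
Methylation level (percent of reads, positions read in all 4 libraries) in 50-kb bins against the distance from the start of the region, 1 line per library, with the 4 stretches shaded as before. The lines lie close together in most bins; the bin around Brd2 and H2-DMa stands between 32.8% and 34.7% in the 4 libraries, and the bin that starts the T genes between 14.6% and 20.8%.

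The low stretches were in the same places in all 4 libraries. The bin with Brd2, a bromodomain gene, and H2-DMa, a chain of the class II peptide editor, stood at 34.7%, 33.0%, 32.8% and 34.5%. The bin with Clic1 and the Ly6g6 genes stood at 45.7%, 45.9%, 44.2% and 45.3%. The bin with Aif1, Lst1 and Ltb stood at 44.5%, 43.5%, 42.6% and 41.1%. In the neighbouring bin, with Lta and Nfkbil1, the libraries lay further apart, at 63.6%, 54.1%, 55.5% and 58.1%, with PBS Teff highest.

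Promoters of the region were more often unmethylated than promoters at large. Of its 142 promoters in the RefSeq table, 86 were read in PBS Teff, and 59.3% of those stood at 20% or less, against 44.7% in the genome. All 8 promoters read at the K end did. Only 25.1% of the CpG cytosines of the region's promoters were listed in any library, against 28.8% in the genome. At H2-K1, 1 of 28 promoter cytosines was listed, at 0% of 5 reads in PBS Teff. At H2-D1, 6 of 38 were listed, at 0% of 25 reads in PBS Teff, with an upper interval bound of 13.3%. No position of the H2-Aa promoter printed above was listed.

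Among the classical class I genes, H2-D1 (RefSeq gene 14964, 35263094 to 35267497) could be read and H2-K1 (gene 14972, 33996012 to 34000619) hardly could. H2-D1 with its flanks stood at 46.9%, 35.8%, 40% and 26.1% over 5 shared positions. Both Treg libraries were below the Teff library of the same treatment, by -11.1 points (interval -21.6 to -0.123) and -13.9 points (interval -25.3 to -1.81). None of its windows was called, but the classical class I genes held only 5 and 4 tested windows in these pairs. H2-K1 had 1 shared position. Over all positions listed in each library it stood at 54.7%, 51.6%, 48.8% and 60%, on 128, 62, 80 and 30 reads over different positions.

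Of the nonclassical class I genes, the Q and M genes were mostly methylated. The T genes, some on few reads, differed widely from each other. The 7 Q genes with shared positions ran from 80% at H2-Q2 to 94.2% at H2-Q4 in PBS Teff, and from 78.4% to 88.4% in OX40L-JAG1 Treg. The 5 M genes, which are known from vomeronasal neurons, ran from 83.2% at H2-M10.3 to 95.5% at H2-M10.1 in PBS Teff. Of the T genes, H2-T24 stood at 23.6%, 18.3%, 17.1% and 22.2%, and H2-T10 at 82.5%, 80.2%, 82.1% and 86.8%. H2-T22 was at 0% in all 4 libraries on 15 to 18 reads over 3 positions. H2-T3, which encodes the thymus leukemia antigen, stood at 66.7%, 77.1%, 83.2% and 60.6% over 8 positions.

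With their flanks, the classical class II genes were methylated in all 4 libraries at the positions shared by them. H2-Eb1 (gene 14969, 34305867 to 34316674) stood at 89.1%, 83.3%, 81.4% and 82.7% over 22 shared positions. H2-Eb2 stood at 74.3%, 76.2%, 71.6% and 70.8%. H2-Ab1 (gene 14961) had 2 shared positions at 88.9% to 100%, and H2-Aa (gene 14960) had 1 at 88.9% to 100%, on 5 to 19 reads each. Of the genes for the peptide-loading chains, H2-DMb2 stood at 90.7% to 96.4% and H2-DMb1 at 75.1% to 80.5%. H2-Oa and H2-Ob, the chains of the H2-O regulator of peptide loading, stood at 68.3% to 73.0% and 80.5% to 86.8%. H2-DMa was lower, at 15.2%, 34.6%, 23.5% and 27.8% over 13 positions. Its PBS Treg level was 19.4 points above PBS Teff (interval 8.82 to 30.1), and none of its 7 windows tested in that pair was called. Promoters of this group were thinly read: H2-Oa stood at 7.69% of 13 reads in PBS Treg and 16.7% of 24 in OX40L-JAG1 Teff. H2-Ob stood at 18.2% of 11 reads in PBS Teff, 9.09% of 11 in OX40L-JAG1 Teff and 80% of 5 in OX40L-JAG1 Treg. For H2-DMb2, PBS Teff had 39.1% of 23 reads methylated and OX40L-JAG1 Treg had 90% of 10. The lowest of these promoter levels lay below the levels of the same genes with flanks, on at most 24 reads a library.

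Of the antigen processing genes in the class II stretch and at the K end, Tap1, Psmb9 and Tapbp held unmethylated promoters beside methylated flanks. Tap1 and Tap2 encode the peptide transporter, Psmb8 and Psmb9 are immunoproteasome subunits, and Tapbp encodes tapasin. The Tap1 promoter stood at 1.33% of 75 reads in PBS Teff, the Psmb9 promoter at 1.04% of 96 and the Tapbp promoter at 2.07% of 145. The Tap1 and Psmb9 promoters overlap almost entirely, so they are not separate readings. The Psmb8 promoter was read in OX40L-JAG1 Treg alone, at 0% of 12 reads. With flanks, Tap1 (gene 21354) stood at 80.6%, 79.2%, 77.9% and 77.1%. Tap2 stood at 63.4%, 68.8%, 63.1% and 69.0%, and Psmb8 at 63.4%, 66.1%, 60% and 64.3%. Psmb9 stood at 90.2%, 92.6%, 80.8% and 83.4%, lower in OX40L-JAG1 than in PBS by -9.41 points in Teff (interval -16.3 to -2.84) and -9.13 points in Treg (interval -15.9 to -2.50). Tapbp stood at 74.3%, 75.6%, 74.3% and 73.0%. No window of these 5 genes was called in any of the 4 comparisons. Tested were 36 and 36 windows between Treg and Teff (PBS, then OX40L-JAG1), and 54 and 30 between treatments (Teff, then Treg). The genome had at most 0.259% of windows called in 1 direction, so the absence of calls in so few windows says little.

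**Figure D3:**
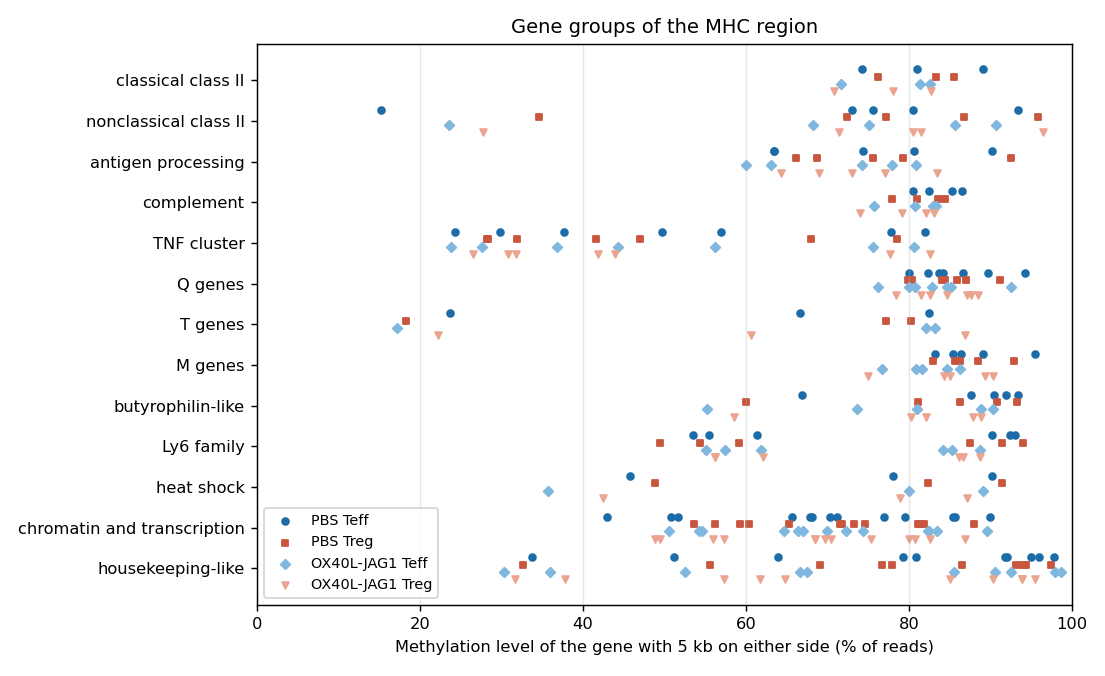
Methylation level (percent of reads at positions read in all 4 libraries) of the genes of 13 groups of the region, each gene with 5 kb on either side and at least 5 shared positions; 1 marker per gene and library. The TNF cluster has 5 of 7 genes under 60% in each library, and complement genes lie between 74.0% and 86.5%.

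Class III joins methylated complement genes and a cytokine cluster of mixed levels. C4b (gene 12268) stood at 82.4%, 81.0%, 80.7% and 79.2%, and C4a (gene 625018), its near copy, at 85.3%, 84.4%, 82.9% and 83.1%. Reads of C4a and C4b can be confused, so their levels are uncertain. C2 stood at 86.5%, 83.6%, 83.4% and 82.2%, and Cfb, complement factor B, at 80.6%, 77.9%, 75.7% and 74.0%. No window of these 4 genes was called in any of the 4 comparisons. Tested were 40 and 23 windows between Treg and Teff (PBS, then OX40L-JAG1), and 40 and 21 between treatments (Teff, then Treg). With at most 0.259% of windows called in 1 direction in the genome, this absence says little.

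The 7 genes of the TNF cluster ran from 24.2% to 82.0% in PBS Teff, with a median of 49.7%. Tnf (gene 21926, 35199367 to 35202007) with its flanks stood at 37.7%, 28.3%, 36.8% and 30.8%. Lta, lymphotoxin alpha (gene 16992), stood at 49.7%, 41.6%, 44.3% and 43.9%, and Ltb, lymphotoxin beta (gene 16994), at 57.0%, 46.9%, 56.2% and 41.9%. In the PBS pair, Treg minus Teff was -9.32, -8.06 and -10.0 points; their flanks overlap, so these are not 3 separate readings. In the OX40L-JAG1 pair the differences were -6.00, -0.383 and -14.3 points. Lst1, a gene of leukocytes, stood at 24.2%, 28.2%, 23.8% and 26.5%, and Aif1, a gene of macrophages, at 78.5% to 82.6%.

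Unmethylated islands alternated with methylated stretches inside the cluster. The window 35201001 to 35202000, inside Tnf beside its start, stood at 1.33%, 0.562%, 1.65% and 0.709% on 141 to 226 reads. The window 35195001 in Ltb was at 0% in the 3 libraries that read it. The window 35205001, which holds the Lta start, stood at 15.2%, 5.23%, 10.8% and 10.7%, and 5 kb upstream the window 35210001 stood at 10.1%, 17.3%, 7.65% and 8.75%. Between them, the window 35208001 stood at 90% to 95.2%. Downstream of Tnf, the window 35198001 stood at 81.7% in PBS Teff and 59.6%, 68.7% and 59.7% in the others, and it was not called in any pair.

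**Figure D4:**
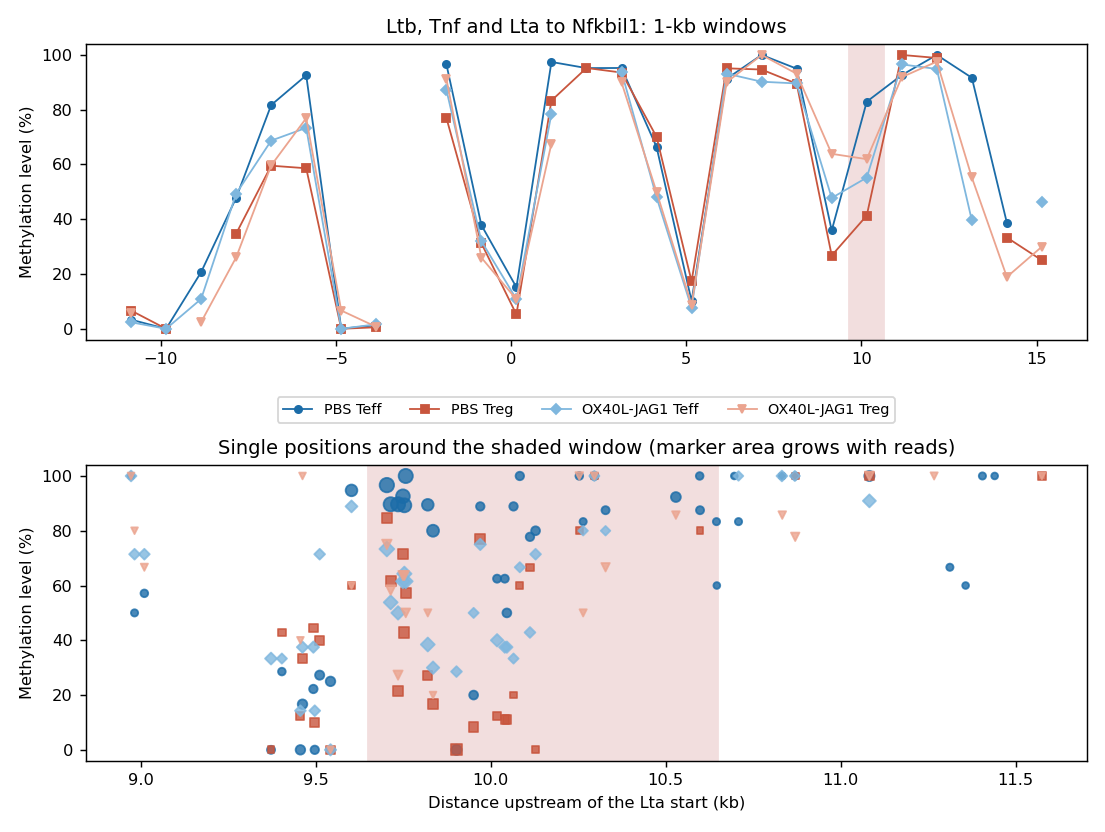
Methylation level against the distance upstream of the Lta start: 1-kb windows with at least 3 positions in a library (top) and single positions around the shaded window at 35215001 (bottom), with colours and symbols for the 4 libraries in both. The troughs at Ltb, Tnf, Lta and 5 kb upstream are shared, and in the shaded window PBS Teff lies above the other 3 libraries at most positions.

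Treg was compared with Teff within each treatment window by window with Fisher's exact test, adjusted by Benjamini-Hochberg over the windows of the whole genome. Calls needed an adjusted p below 0.05 and a gap of 20 points or more. In the PBS pair, 2 of 980 windows of the region (0.204%) were lower in Treg and 4 (0.408%) were higher, against 0.0971% lower and 0.0494% higher in the genome. In the OX40L-JAG1 pair, 0 of 695 windows were called, where the genome had 0.0239% lower and 0.0189% higher. By the same test, 36 of the 695 (5.18%) had an unadjusted p under 0.05, against 3.91% in the genome. The median over windows, Treg minus Teff, was -0.159 points with PBS and 0.593 with OX40L-JAG1, beside -0.0675 and 0.349 in the genome. With 0 calls in the OX40L-JAG1 pair, no window of the region could be called in both pairs. The genome had 0.015% lower and 0.00902% higher in both.

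The treatments were set against each other within each cell type in the same way. In Teff, 3 of 1137 windows (0.264%) were lower and 2 (0.176%) higher with OX40L-JAG1, against 0.259% lower and 0.0347% higher in the genome. In Treg, 0 of 629 were called, against 0.0282% lower and 0.00592% higher in the genome. Of the 629, 40 (6.36%) had an unadjusted p under 0.05 by Fisher's exact test, against 6.82% in the genome. The lower calls in Teff were therefore at the share of the genome. With so few calls, each share rests on single windows. Because 1 read counts at several positions, read sums were also divided by 3, and of the 9 windows described next only the one between Lta and Nfkbil1, in the PBS pair, was still called by Fisher's exact test.

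The window with the smallest p of the region lay between Lta and Nfkbil1, an NF-kappa-B inhibitor-like gene. The window 35215001 to 35216000 is in no gene body. Its middle lies at -10149 bases from the Lta start, upstream of it, and it ends 4175 bases from Nfkbil1. Over its 21 positions read in the PBS pair, PBS Teff had 82.4% of 330 reads methylated and PBS Treg had 41.3% of 208. The difference was -41.1 points (interval -48.6 to -32.9), and Fisher's exact test gave an adjusted p of 2.51e-18. PBS Treg was lower at 19 of these 21 positions and equal at 2.

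In the OX40L-JAG1 pair the same window showed no such gap. It stood at 59.7% of 119 reads in Teff and 57.6% of 99 in Treg, which differ by -2.09 points (interval -15.0 to 10.8). In Teff, OX40L-JAG1 was lower than PBS, at 55.2% against 82.1%, by -26.9 points (interval -34.9 to -18.6, adjusted p 4.38e-07 by Fisher's exact test). It was lower at 18 of 21 positions and higher at 2. In Treg the levels were 52.2% with PBS and 60.4% with OX40L-JAG1, which differ by 8.27 points (interval -5.33 to 21.3). PBS Teff was thus the library that stood apart.

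At the 9 positions of this window read in all 4 libraries, the levels were 91.8% (interval 87.4 to 94.7), 50.9% (41.7 to 60.1), 57.8% (48.4 to 66.6) and 57.1% (46.5 to 67.2). PBS Teff ran from 80% to 100% over these positions and PBS Treg from 16.7% to 100%. The difference between Treg and Teff changed by 40.2 points between the treatments, with an adjusted p of 0.00183 by the Wald test of the interaction. It was the 1 window called by this test of 452 in the region, against 0.0044% in the genome. The call was lost, leaving 0 in the region, with a minimum of 10 reads per position and with read sums divided by 3.

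The position values show where the gap lay. At 35215086, the levels were 89.7% of 29 reads, 21.4% of 14, 50% of 12 and 27.3% of 11. At 35215186 they stood at 80%, 16.7%, 30% and 20%. At 35215253, PBS Teff and PBS Treg were both at 0%. At 35215647 all 4 libraries stood at 100%. At most 30 reads covered any of these positions in PBS Teff and 16 in PBS Treg, so few molecules lie behind the sums. The window before, 35214001, stood at 35.9%, 26.8%, 47.8% and 63.9%, and 35213001 and 35217001, further out on either side, stood at 89.5% to 95% and 94.9% to 100%.

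Between Ddr1 and the T genes, windows were called as higher in PBS Treg. In Ddr1, a collagen receptor gene, the window 35698001 stood at 59.5% in Teff and 81.1% in Treg of the PBS pair, 21.6 points higher (interval 11.7 to 31.0, adjusted p 0.0203 by Fisher's exact test) and higher at 9 of 9 positions. The OX40L-JAG1 pair stood at 59.0% and 81.7%, 22.7 points apart, and was not called (Fisher's exact test, adjusted p 0.264). At 35727001, 22260 bases from Ddr1 and in no gene, PBS Teff stood at 3.95% and PBS Treg at 37.0%, and the OX40L-JAG1 pair at 0% and 20.6% on 26 and 34 reads. At 35765001, also outside genes, the levels were 25.8% and 64.3% in the PBS pair and 36.0% and 67.6% in the OX40L-JAG1 pair. The adjusted p in the PBS pair was 0.0022 and 0.00541 for these, by Fisher's exact test, and neither was called in the OX40L-JAG1 pair.

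In all 3 of these windows Treg lay above Teff in both pairs. The fourth window higher in PBS Treg was in Ppp1r10, a regulator of protein phosphatase 1. The window 35926001 had 27.4% of 62 reads methylated in Teff and 81.2% of 32 in Treg of the PBS pair, 53.8 points higher (interval 33.3 to 67.5). Of its 6 positions in this pair, 4 were higher and 2 equal. The Teff comparison uses the same PBS Teff library, so its call is not a separate finding. There the window was higher with OX40L-JAG1, at 47.7% against 21.7% over 13 positions. That call was lost with a minimum of 10 reads per position (adjusted p 0.0735, Fisher's exact test). The window was not tested in the OX40L-JAG1 pair. The second window lower in PBS Treg was at the start of Mucl3, a mucin-like gene: 35643001 stood at 91.4% and 52.5%, lower at 4 of 4 positions.

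The remaining windows were called in Teff between the treatments. In Pbx2, a homeodomain gene, the window 34593001 stood at 3.80% with PBS and 26.9% with OX40L-JAG1, 23.1 points higher (interval 11.7 to 35.0). OX40L-JAG1 Treg stood at 4.88% there. In Atf6b, a transcription factor of the unfolded protein response, 34648001 stood at 94.2% with PBS and 64.9% with OX40L-JAG1, a difference of -29.3 points (interval -39.9 to -17.9). Near H2-M10.1, 36320001 stood at 93.9% and 71.4% over 3 positions, of which 2 were lower and 1 higher, and it was not called once differences were centred on the genome median. The adjusted p was 0.0192, 0.000866 and 0.00465 in this order, by Fisher's exact test. None of these windows was tested between treatments in Treg. Over all positions listed in each library, Treg stood at 89.7% of 97 reads with PBS and 51.9% of 27 with OX40L-JAG1 in Atf6b. Near H2-M10.1 it stood at 94.1% of 85 reads and 78.8% of 80, and in Pbx2 at 0% of 12 and 4.35% of 46.

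**Figure D5:**
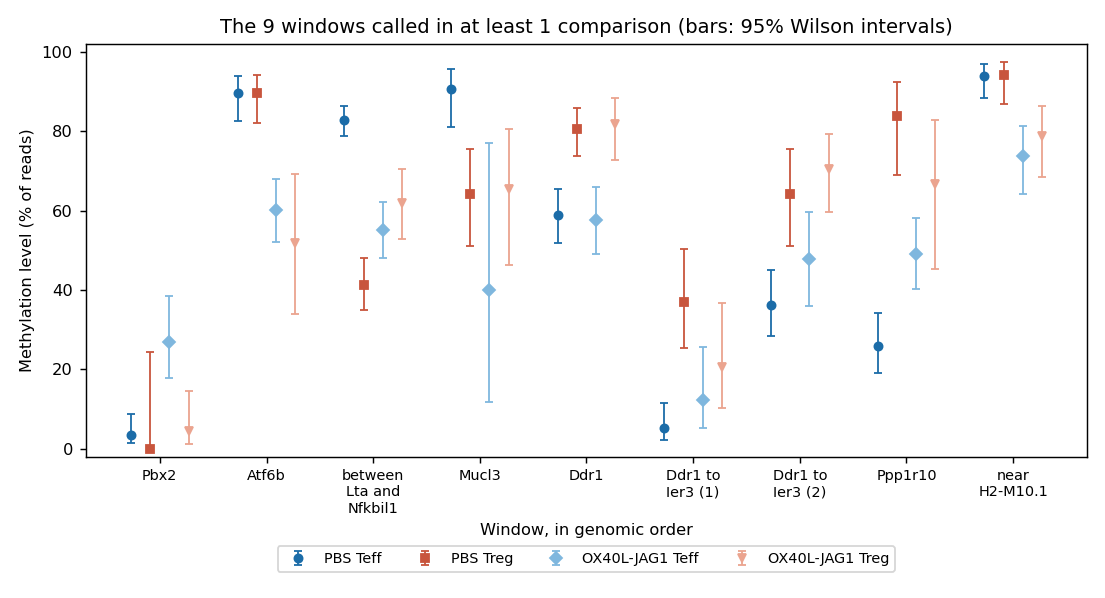
Methylation level (percent of reads over all positions listed in a library) of the 9 windows called in at least 1 comparison. Windows are in genomic order, with 95% Wilson intervals that cover counting error at most. Treg lies above Teff under both treatments at Ddr1 and at both windows between Ddr1 and Ier3, while PBS Teff alone stands high between Lta and Nfkbil1.

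The lower methylation of the OX40L-JAG1 libraries was also seen in the MHC, to a smaller extent than in the genome. At shared positions the difference in Teff was -1.94 points (interval -2.43 to -1.45) in the region, -4.33 on the rest of chromosome 17 and -3.58 in the genome. In Treg it was -0.904 points (interval -1.46 to -0.349) in the region, -3.18 on the rest of the chromosome and -2.74 in the genome. By stretch, the Teff difference was 0.0916 points at the K end, -1.39 in class II, -2.26 in class III and -2.07 in the D, Q, T and M stretch. The interval at the K end, -2.73 to 2.87, rests on 86 positions and spans 0.

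Windows were also compared within level classes, an alternative added after the data were seen. Windows with a mean level of 20% or less made up 8.80% of the region's windows in the Teff pair and 1.46% of the genome's. Among windows at 80% or more, the median Teff difference was -2.20 points in the region and -2.83 in the genome, and the median Treg difference was -0.608 and -2. Among windows between these levels it was -3.16 and -5.34 in Teff, and -1.85 and -4.44 in Treg. The region thus lay closer to 0 than the genome in both of these classes and both cell types; whether its difference from the genome is beyond what regions of this size show was not tested.

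Genes of antigen presentation outside the region were read as a comparison, 22 in number. In the PBS pair 1 of them, Tapbpl, a tapasin relative, held 1 window higher in Treg among the 471 windows tested for the list, and 0 held a lower window; the genome had 0.0494% higher. In the OX40L-JAG1 pair and in the Treg comparison 0 held a call, of 352 and 303 windows tested. The genome had 0.0239% and 0.0282% lower in these. In Teff, Rfx5, a factor of class II promoters, Pdia3, a chaperone of class I loading, and Irf2 each held 1 window lower with OX40L-JAG1 among 544 tested for the list, where the genome had 0.259% lower. Ciita, the class II transactivator, stood at 88.9%, 87.2%, 84.8% and 86.1% with 0 windows called, and B2m, the class I light chain, at 50.6%, 51.8%, 56.0% and 43.9%, also with 0.

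The labels of the sorted cells were checked at marker genes. Foxp3 had 4 of 16 windows lower and 1 higher in Treg in the PBS pair, and 2 of 11 lower in the OX40L-JAG1 pair. Ikzf2 had 49 of 137 and 31 of 109 lower. The genome had 0.0971% lower and 0.0494% higher in the PBS pair, and 0.0239% lower and 0.0189% higher in the OX40L-JAG1 pair. Of 5 pan T cell marker genes, Cd3e held 1 window higher and Cd5 held 2 lower in Treg in the PBS pair, of 59 tested. In Teff, Cd3e held 1 window higher and Cd5 held 1 lower with OX40L-JAG1, of 65 tested. The genome had 0.0347% higher and 0.259% lower there. The pan T cell genes held 0 calls in the OX40L-JAG1 pair and in the Treg comparison, of 31 and 35 tested. With their flanks, Cd3e stood at 26.1%, 45.0%, 46.1% and 57.5%, and Cd5 at 70.8%, 55.5%, 64.5% and 53.0%. Of 8 B cell marker genes, 0 held a window called between Treg and Teff, of 446 and 305 tested in the PBS and OX40L-JAG1 pairs. The 5 CD8 T and NK cell marker genes held 0 calls, of 40 and 31 tested. At the shares of the genome, so few windows would hold few calls or none, so these counts are a weak check. Of the B cell genes, only Pax5 held a window lower with OX40L-JAG1 in Teff, 1 of its 105 windows. For the whole list 504 windows were tested, and the genome had 0.259% lower. Of 7 myeloid and dendritic genes only Spi1 held a window called between Treg and Teff. Spi1 was higher in Treg in 2 windows of each pair, of 107 and 79 tested for the list, where the genome had 0.0494% and 0.0189% higher. Cells of another type in a sort would add their own methylation to the levels above; their part in the results was not tested.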

How the data were processed

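Whole-genome bisulfite libraries of 4 groups, 1 each, were analysed. Trimmomatic, Bismark and build mm10 are named in the submitters' processing notes; versions and duplicate removal are not given in the sources used here. Per the file headers, the deposited table gives read counts and methylated read counts for 25374149 cytosine positions, strands apart, and a fraction that the authors computed as methylated over all reads. No count between 0 and 5 occurs in the deposited table. Listed reads numbered 208402911 (Teff) and 131555634 (Treg) with PBS, and 159291553 (Teff) and 103584075 (Treg) with OX40L-JAG1, which is not sequencing depth.

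Counts were summed in 1-kb windows with at least 3 positions of 5 or more reads in both libraries, leaving out mitochondrial DNA. Fisher's exact test (two-sided) and, for the interaction, a Wald test (logistic model, 0.5 added per cell) were adjusted by Benjamini-Hochberg over the genome (Python 3.11.15, scipy 1.17.1, numba 0.67.0). The window test, but not the interaction test, was run on simulated data with independent reads. The simulation leaves out that 1 read counts at several positions, so it cannot show what this does to p. Intervals are 95% Wilson or Newcombe intervals. Genes and promoters came from RefSeq (GRCm38.p6), with no exons, so exon, intron and UTR were not told apart.

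Named genes were 17 class I, class II, processing, TNF and complement genes, then called windows with their genes, then lists by counts and ranges; other genes given with values were chosen after their values were seen. The region, its 14 gene lists and 6 lists outside it were chosen with earlier results of these data known. Alternatives covered read and position minimums, shared positions, reduced read sums, a 30-point threshold, centring, merged strands, shifted windows, deep positions and isolated positions.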

Additional observations from a re-analysis of the deposited data

Results flagged for a closer look

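The window at chromosome 17, 35215001 to 35216000, between Lta and Nfkbil1, is listed here because the difference between Treg and Teff was not the same under PBS and under OX40L-JAG1. At the 9 positions read in all libraries, Treg minus Teff was -40.9 points with PBS and -0.655 points with OX40L-JAG1, so that the difference changed by 40.2 points (adjusted p 0.00183, Wald test of the interaction). The call was lost with a minimum of 10 reads per position and with read sums divided by 3. PBS Teff, at 91.8%, stood above the other 3 libraries, which lay between 50.9% and 57.8%. With 1 library per group, a property of the PBS Teff library and a property of these cells cannot be told apart.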

How the results depend on the processing

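Of 86 values of called windows under the alternatives, 68 stayed called, 18 lost the call and 0 changed direction. Each call had 5 to 9 values, since alternatives that left its window untested are not counted. Shifted windows gave none. In the PBS pair the window at 35215001 was called in 9 of 9, between -43.9 and -40.9 points, also with read sums divided by 3 (adjusted p 0.000391, Fisher's exact test). Windows lower in PBS Treg numbered 1 with at least 5 positions, with positions read in all 4 libraries and with read sums divided by 3. Windows higher in PBS Treg numbered 0 with read sums divided by 3 and 2 with windows shifted by 500 bases. In Teff, windows lower with OX40L-JAG1 numbered 1 with a minimum of 10 reads and with shared positions, 0 with divided sums and at 30 points, and 5 with merged strands. Windows higher numbered 0 with a minimum of 10 reads, shared positions, divided sums and 30 points, and 1 with shifted windows. The interaction gave 0 windows with a minimum of 10 reads and with divided sums. The cause was not tested. Fewer positions and reads enter these settings by construction, except for the threshold, the shift and the merged strands.

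Levels of the region, in the order used above, were 76.9%, 76.0%, 74.8% and 75.6% with a minimum of 10 reads, and 76.4%, 76.0%, 74.4% and 75.1% without isolated positions. Without the deepest positions, above the 99th percentile, PBS Teff was at 75.3% and OX40L-JAG1 Teff at 73.3%. The lowest bin held 0.08 positions per kb in bins of 25 kb. Isolated positions were 1.77% by pooled reads. No paired analysis was possible because each group has 1 library.

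A median of 49 and 41 reads in PBS Teff and PBS Treg lay behind a window of the PBS pair, so differences near 20 points in most windows were not detectable at this depth.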

Other observations

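H2-T3, the thymus leukemia antigen gene, held the window with the next smallest p of the interaction test. The window 36188001 stood at 72.4%, 85.3%, 90% and 56.7% (Teff, then Treg, with PBS and then with OX40L-JAG1) over 3 positions, and its adjusted p of 0.352 by the Wald test missed the threshold. Beside Trim39, a ubiquitin ligase gene, the window 36273001 stood at 77.3%, 76.8%, 59.3% and 76.8% over 8 positions on 142 to 194 reads, with an adjusted p of 1. OX40L-JAG1 Teff was the low library there.

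The 3 heat shock and 10 housekeeping genes listed for the region held no call in any of the 4 comparisons. Tested were 22 and 94 windows in the PBS pair and 12 and 50 in the OX40L-JAG1 pair. Between treatments they were 22 and 100 in Teff and 11 and 49 in Treg. The genome had at most 0.259% of windows called in 1 direction, so the absence of calls in so few windows says little. Clic1 stood at 33.7%, 32.6%, 30.2% and 31.7%. Tubb5, a tubulin gene, stood at 79.3%, 77.9%, 67.5% and 64.8%, with both OX40L-JAG1 libraries below both PBS libraries, and its neighbour Flot1 at 80.8%, 76.8%, 66.7% and 61.8%; their flanks overlap, and these genes were picked after their values were seen.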
